A study of Mus musculus with 6 samples.

Results

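The 10 cell cycle cyclins of types A, B, D and E were followed in RNA-seq of STRA8+ germ cells from mouse testis. They are Ccna1, Ccna2, Ccnb1, Ccnb2, Ccnb3, Ccnd1, Ccnd2, Ccnd3, Ccne1 and Ccne2, chosen by gene symbol, and all 10 were found among the 54532 genes of the expression table. The Control group held 3 libraries whose genotype is given as Cre, and the cKO group held 3 libraries with a conditional knockout of Srsf1. SRSF1 is a splicing factor of the SR protein family, and the question the comparison addresses is what loss of this factor does to germ cells that enter meiosis. The strain, the age of the mice and the promoter that drives Cre are not given in the sources used here. The labels do not say that the libraries come from separate animals, so the p-values measure the spread between these samples, which may be technical.

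Cyclins bind cyclin-dependent kinases (CDKs) and switch them on at set points of the cell cycle. D-type cyclins act with CDK4 and CDK6 in G1, E-type cyclins act with CDK2 at entry into S phase, A-type cyclins act from S phase into G2, and B-type cyclins drive entry into M phase. In the male germ line, cyclin A2 is found in mitotic spermatogonia, cyclin A1 is found in later spermatocytes and is needed for the meiotic divisions, and cyclin B3 is known mainly from meiotic cells.

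The libraries held between 15364511 and 17310353 fragments in Control and between 14447887 and 15326722 in cKO, as recovered from the FPKM values. FPKM divides a gene's fragments by its length in kilobases and by a library size. The library size implied by the FPKM values differed somewhat from the recovered fragment total. Relative to that total it was 0.971, 0.998 and 0.999 in Control 1 to 3, and 1.025, 0.993 and 1.052 in cKO 1 to 3. The cause of this difference was not tested. Srsf1, the targeted gene, was at 84.7, 45.2 and 51.9 FPKM in Control 1 to 3 and at 5.08, 4.94 and 5.17 FPKM in cKO 1 to 3. All cKO libraries were thus far below all Control libraries, which fits their labels. Control 2 stood apart from the other Control libraries in its spermatid transcripts. The summed level of 12 spermatid markers was 8627 FPKM in Control 2, against 2645 in Control 1 and 2593 in Control 3. The fold changes of the cyclins without Control 2 are therefore given beside those with it.

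In cKO cells, Ccna1 fell to a small fraction of its Control level, and Ccnb3, Ccnb1 and Ccna2 rose. Of the 10 cyclins, 3 were called higher and 1 lower, by limma with Benjamini-Hochberg adjustment over 15451 tested genes at a threshold of 0.05. Among all tested genes, 11.8% were called higher and 22.2% lower, 34% in either direction. These background shares depend on the scaling. Under quantile normalization, which shifted the median difference of the tested genes to 0.21 (log2, cKO minus Control), 5164 genes were called higher and 2527 lower, against 1821 and 3437 on FPKM as deposited, and 6 cyclins were called higher and 1 lower. Every cKO library was above every Control library for 6 of the 10 cyclins, and every cKO library was below every Control library for 1. Over all tested genes these shares were 21.8% and 28.6%. The median log2 fold change of the cyclins (cKO minus Control, on the log2(FPKM + 1) scale) was 0.24, beside -0.0082 over all tested genes. Without Control 2, 4 cyclins were called higher and 1 lower, beside 1752 higher and 3202 lower among the 15168 genes then tested. Each library is a bulk sample, so fewer cells of a type and less RNA per cell cannot be told apart.

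**Figure D1:**
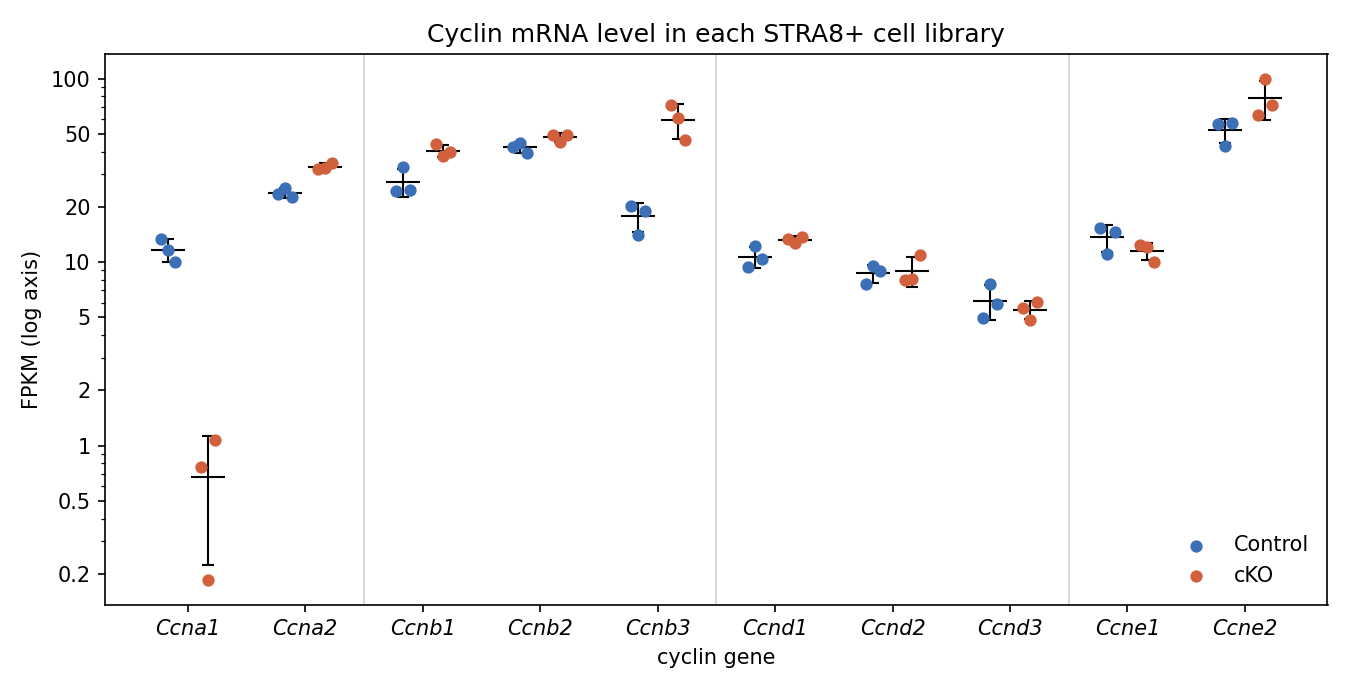
Level of each cyclin mRNA in FPKM on a log axis, with a point for each of the 3 Control (blue) and 3 cKO (orange) libraries, a bar at the group mean and whiskers of 1 SD. Ccna1 drops from a mean of 11.7 to 0.675 FPKM and Ccnb3 climbs from 17.7 to 59.7 FPKM, while the groups overlap for Ccnd2, Ccnd3 and Ccne1.

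The A types moved in opposite directions. Ccna1, the germ-line A-type cyclin, was at 13.4, 11.6 and 9.99 FPKM in Control 1 to 3 and at 0.763, 0.186 and 1.08 FPKM in cKO 1 to 3. Every cKO library lay far below every Control library, and cKO 2 was the lowest. The Ccna1 mean of 11.7 ± 1.69 FPKM (SD, n = 3) in Control was 17.3-fold that in cKO, 0.675 ± 0.451 FPKM (SD, n = 3). The log2 fold change of Ccna1 was -2.95 (SE 0.22, limma with Benjamini-Hochberg adjustment, adjusted p = 1.0e-04), on a scale whose pseudocount understates the change of a low gene. Without Control 2 it was -2.95, and in limma-voom on recovered fragments, which adds no pseudocount of that size, it was -4.33. Of the tested genes, 536 had a log2 fold change at or below that of Ccna1. The cKO values of Ccna1 rest on 22, 5 and 30 fragments, against 404, 327 and 317 in Control, so the differences among the cKO libraries are known less precisely than the gap between the groups.

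Ccna2, the A-type cyclin of mitotic cells, was at 23.6, 25.4 and 22.5 FPKM in Control and at 32.2, 32.5 and 34.7 FPKM in cKO. The 3 cKO libraries lay close together and all above Control. Its log2 fold change was 0.46 (SE 0.07, limma with Benjamini-Hochberg adjustment, adjusted p = 0.0033), and 0.51 without Control 2. The ratio of Ccna2 to Ccna1 was between 1.76 and 2.25 in the Control libraries and between 32.3 and 175 in the cKO libraries. The A types thus stood nearer to each other in Control, whereas cKO cells held almost only Ccna2 mRNA of this type. How near depends on the gene length used. Per length of the transcript with the longest coding sequence, the Control means were 32.8 for Ccna2 and 12.4 for Ccna1.

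Of the B types, Ccnb3 and Ccnb1 rose and Ccnb2 was not called. Ccnb3, the B-type cyclin of meiotic cells, was at 20.1, 14.1 and 19.0 FPKM in Control and at 71.9, 61.1 and 46.1 FPKM in cKO. The lowest cKO library was still above the highest Control library, although the cKO libraries differed among themselves by 1.56-fold. The Ccnb3 mean was 3.37-fold higher in cKO, with a log2 fold change of 1.69 (SE 0.19, limma with Benjamini-Hochberg adjustment, adjusted p = 6.6e-04). Without Control 2 it was 1.54, and 30 of the tested genes had a log2 fold change at or above that of Ccnb3.

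Ccnb1, the main activating partner of CDK1 at entry into mitosis, was at 24.5, 32.9 and 24.6 FPKM in Control and at 43.9, 37.9 and 39.7 FPKM in cKO. Control 2 was the highest Control library and yet below the lowest cKO library. Its log2 fold change was 0.56 (SE 0.13, limma with Benjamini-Hochberg adjustment, adjusted p = 0.0146), and 0.70 without Control 2. The call rested on single libraries, since the limma adjusted p of Ccnb1 was 0.0529 without Control 1, 0.0524 without Control 3 and 0.0531 without cKO 1. Ccnb2, another M-phase partner of CDK1, was at 42.4, 44.7 and 39.3 FPKM in Control and at 49.3, 44.9 and 49.4 FPKM in cKO. The groups of Ccnb2 did not overlap, but cKO 2 was barely above Control 2. The difference of 0.18 (SE 0.08, log2) did not pass the threshold (limma with Benjamini-Hochberg adjustment, adjusted p = 0.112), and without Control 2 it was 0.22 (adjusted p = 0.0797).

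Ratios within a library compare the B types with each other. The ratio of Ccnb3 to Ccnb2 was between 0.315 and 0.483 in Control and between 0.932 and 1.46 in cKO. The ratio of Ccnb3 to Ccnb1 was between 0.428 and 0.820 in Control and between 1.16 and 1.64 in cKO. The ratio of Ccnb1 to Ccnb2 was between 0.578 and 0.737 in Control and between 0.803 and 0.891 in cKO, so the groups did not overlap in any of these ratios. Which of a pair is the more abundant depends on the gene length used. Per length of the transcript with the longest coding sequence, Ccnb1 exceeded Ccnb3 in the cKO libraries too, at 74.4, 64.2 and 67.2 against 72.1, 61.2 and 46.2. The shift of a ratio between the groups does not depend on length, since a new length multiplies the ratio by the same factor in every library.

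None of the 3 D types, which link growth signals to the start of the cycle, was called in either direction. Ccnd1 was at 9.40, 12.2 and 10.4 FPKM in Control and at 13.4, 12.6 and 13.7 FPKM in cKO. All 3 cKO values were above all Control values, with the gap between Control 2 and cKO 2 the narrowest. The log2 difference of Ccnd1 was 0.30 (SE 0.11, limma with Benjamini-Hochberg adjustment, adjusted p = 0.0712), and without Control 2 it was 0.39 and passed the threshold (limma adjusted p = 0.0192). Ccnd2 ranged from 7.63 to 9.53 FPKM in Control and from 7.97 to 10.9 FPKM in cKO, and Ccnd3 from 4.97 to 7.60 and from 4.82 to 6.07 FPKM. For both of these genes the groups overlapped, with log2 differences of 0.035 for Ccnd2 and -0.13 for Ccnd3 (limma with Benjamini-Hochberg adjustment, adjusted p = 0.867 and 0.562). Without Control 2 the differences were 0.097 for Ccnd2 and 0.013 for Ccnd3, and under quantile normalization they were 0.26 and 0.15. That of Ccnd2 was -0.046 without Control 1 and -0.096 without cKO 3, so no direction is given for either gene.

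The E types, partners of CDK2 at the start of DNA replication, were not called either. Ccne2 was at 56.7, 43.0 and 57.3 FPKM in Control and at 63.2, 99.4 and 71.6 FPKM in cKO. The groups did not overlap, and cKO 2 stood well above the other libraries. The difference for Ccne2 was 0.55 (SE 0.19, log2, limma with Benjamini-Hochberg adjustment, adjusted p = 0.0595), close in size to that of Ccnb1 but with a wider spread. Without Control 2 it was 0.42 (limma adjusted p = 0.141), and without cKO 2 it was 0.37 (limma adjusted p = 0.116). Without cKO 1 it was 0.69 (limma adjusted p = 0.0452). Ccne1 ranged from 11.1 to 15.4 FPKM in Control and from 10.03 to 12.4 FPKM in cKO, with overlapping groups and a difference of -0.23 (limma with Benjamini-Hochberg adjustment, adjusted p = 0.254). Without Control 2 it was -0.36 (limma adjusted p = 0.0534), and without Control 1 or cKO 3 it was -0.14. Under quantile normalization it was -0.051 (limma adjusted p = 0.798). Inside each library Ccne2 exceeded Ccne1, by 3.69-fold to 3.95-fold in Control and by 5.11-fold to 8.26-fold in cKO.

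Per length in the table, Ccne2 (52.3 ± 8.07 FPKM, SD, n = 3) and Ccnb2 (42.1 ± 2.67) were the most abundant cyclin mRNAs in Control cells, and their ranges overlapped. Ccnb1 (27.3 ± 4.81) and Ccna2 (23.8 ± 1.45) came next, again with overlapping ranges. They were followed by Ccnb3, Ccne1, Ccna1, Ccnd1 and Ccnd2, each of which overlapped its neighbour in that order. Ccnd3 (6.16 ± 1.33) was the lowest, its highest Control library just under the lowest library of Ccnd2. In cKO cells Ccnb3 (59.7 ± 13.0) moved from the fifth to the second place, between Ccne2 (78.0 ± 18.9) and Ccnb2 (47.9 ± 2.57), with ranges that overlapped both neighbours. Ccna1 moved from the seventh to the last place, below Ccnd3 (5.50 ± 0.631), with no overlap. This order, and the places that genes moved, depend on the gene length used. The table's length of Ccnd3 is 8775 bases, the merged exons of its 21 annotated transcripts, whereas the transcript with the longest coding sequence has 2113 bases. An alternative chosen after seeing the data replaced the lengths of all 10 cyclins by those of such transcripts. Ccnb1 then took the second place in both groups (46.3 ± 8.15 in Control and 68.6 ± 5.26 in cKO), and Ccnb3 moved from the seventh to the third. Ccnd3 stood in the fifth place in Control, at 25.6 ± 5.54, and Ccna1 was the lowest in both groups. The ratio of a single gene's mean FPKM between the groups does not depend on its length, whereas sums and shares over several genes do. On the log2(FPKM + 1) scale a new length also shifts the fold change, through the pseudocount.

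The summed level of the 10 cyclins was 218, 212 and 212 FPKM in Control and 301, 314 and 283 FPKM in cKO. All cKO sums were above all Control sums. B types took 39.9%, 43.2% and 39.0% of the sum in Control and 54.9%, 45.9% and 47.7% in cKO, the groups not overlapping. Ccnb3 alone went from a mean share of 8.26% to 19.9%, and Ccnb2 from 19.7% to 16.1%. A types fell outside the Control range on the lower side, with 16.9%, 17.4% and 15.3% in Control and 10.97%, 10.4% and 12.6% in cKO. That gap was close to the loss of the Ccna1 share, from 5.44% to 0.231%, since the Ccna2 share was 11.1% in both groups. The shares of D types (11.9% and 9.31%) and E types (30.8% and 29.8%) overlapped between the groups. With the transcript lengths in place of the table's, the mean share of B types was 37.6% in Control and 46.2% in cKO, that of Ccnb3 6.30% and 15.6%, and that of A types 16.01% and 12.2%, again without overlap. Without Control 2, the change from Control to cKO was 10.04 percentage points for B types (8.80 with it), -4.78 for A types (-5.22), -1.66 for D types (-2.61) and -3.60 for E types (-0.968). The change of E types turned positive without Control 1 (0.157), Control 3 (0.543) or cKO 1 (1.38), so no direction is given for their share. Counted in fragments in place of FPKM, the changes were smaller for A types (-3.23 against -5.22 percentage points), Ccnb2 (-1.84 against -3.62) and Ccna1 (-2.62 against -5.21). They were larger for B types (11.6 against 8.80), D types (-6.67 against -2.61), Ccnd2 (-3.03 against -1.04) and Ccnd3 (-2.67 against -1.03). Of 22 sums, shares and ratios tested, 13 did not overlap, each with p = 0.1 in an exact two-sided permutation test (0.169 after Benjamini-Hochberg adjustment), the smallest p that 3 against 3 libraries can give.

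**Figure D2:**
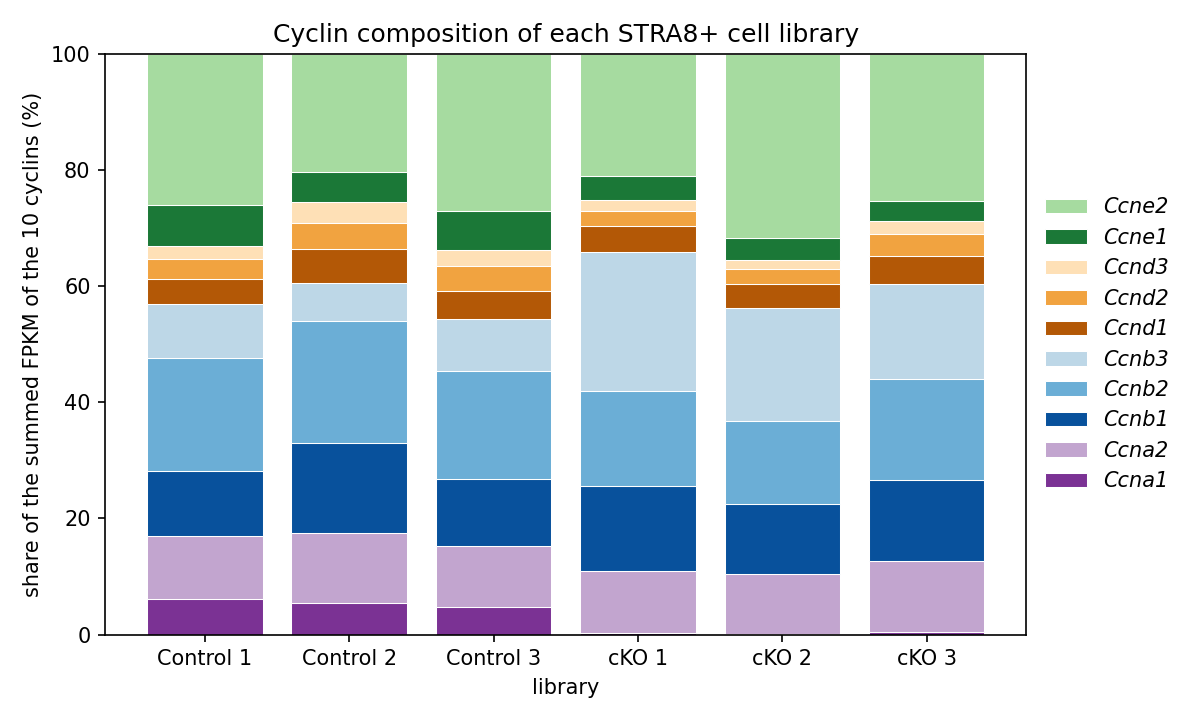
Share of each cyclin in the summed FPKM of the 10 cyclins (%), as stacked bars with a bar for each library. The Ccnb3 share lies between 6.63% and 9.22% in Control and between 16.3% and 23.9% in cKO, and the Ccna1 share at the base of the bars lies between 4.70% and 6.13% in Control and at or under 0.380% in cKO.

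The stage markers of the germ line were read beside these cyclins. Counts of called markers in each list, here and for the other cell types, stand beside the 22.2% called lower and 11.8% called higher over all tested genes. Of 12 markers of pachytene spermatocytes, 10 were called lower (22.2% of all tested genes) and 1 higher (11.8%), and their summed level was 1497, 1550 and 1282 FPKM in Control and 303, 281 and 267 FPKM in cKO. Their most abundant gene was Ybx2, at 444, 436 and 400 FPKM in Control and at 137, 139 and 128 FPKM in cKO. All 12 spermatid markers were called lower, with sums of 8.05, 8.94 and 8.16 FPKM in cKO against the Control sums given above. Tnp2, a transition protein gene and the most abundant of them, was at 708, 2648 and 775 FPKM in Control and under 1 FPKM in every cKO library. Ccna1, the cyclin of later spermatocytes, was low in the same libraries in which these lists were low, and their part in its fall was not tested.

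The counts for markers of earlier germ cells were nearer to those shares. Of 12 early meiotic prophase markers, 2 were called lower, beside 22.2% of all tested genes (median log2 fold change -0.11), with sums of 1418, 1041 and 1305 FPKM in Control and 1153, 1450 and 1084 FPKM in cKO and with Sycp3 the most abundant. Of 10 markers of differentiating spermatogonia, 1 was called lower, against 22.2% of all tested genes, and their sums were 851, 876 and 834 FPKM in Control and 880, 911 and 920 FPKM in cKO. Stra8, their most abundant gene and the marker the cells are named for, was at 262, 222 and 250 FPKM in Control and at 242, 313 and 262 FPKM in cKO. Stra8 mRNA was thus present in every library, but the Control libraries also held the spermatid transcripts given above, whose sum was far above the level of Stra8, and the label names no such cells. For undifferentiated spermatogonia, 9 of 10 markers were tested, 1 was called higher and 1 lower, and the sums were 58.4, 73.1 and 69.0 FPKM in Control and 66.4, 65.0 and 73.4 FPKM in cKO, led by Lin28a. Of the 3 germ cell identity genes, Dazl, the most abundant, was called higher and Ddx4 lower, and their sums were 837, 737 and 814 FPKM in Control and 857, 1042 and 908 FPKM in cKO. The part of these lists in the rise of Ccnb3, Ccnb1 and Ccna2 was not tested.

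Markers of somatic cells were present too. Of 10 Sertoli cell markers 8 were tested and 1 was called higher, near the 11.8% of all tested genes, with sums of 95.0, 77.9 and 115 FPKM in Control and 158, 63.8 and 85.3 FPKM in cKO and with Clu the most abundant. The highest Sertoli sum was in cKO 1, which was also the highest cKO library for Ccnb3 and Ccnb1, and its part in those values was not tested. Without cKO 1, Ccnb3 was still called higher (1.54, against 1.69 with it) and Ccnb1 was not (0.50, against 0.56). The Ccnb1 call was also lost without Control 1 or Control 3. Of 5 Leydig cell, 6 peritubular and endothelial, and 6 macrophage and blood cell markers, 2 each were tested and 0 were called by limma. Their sums were at most 14.0 FPKM (Leydig cells, Control 2), 7.81 FPKM and 8.24 FPKM in any library, led by Insl3, Tagln and Csf1r. No marker of any list was at 0 in all 6 libraries.

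The other genes of the cyclin pathway were described from 9 lists, in which 25 of 86 tested genes were called, beside 34% of all tested genes. The counts of each list stand beside the 11.8% called higher and 22.2% called lower over all tested genes, and nothing particular to a list is read from them. Under quantile normalization 44 of the genes were called, beside 5164 higher and 2527 lower among all 15451 tested genes. Of 6 CDK partner genes, 1 was called higher, Cks1b, which encodes a CDK-binding subunit. It rose from 28.1 ± 5.38 FPKM in Control to 41.0 ± 3.25 in cKO (log2 fold change 0.54, SE 0.14), and its call was lost without Control 1, Control 3, cKO 1 or cKO 3. Cks2, the most abundant of these genes over the 6 libraries, was at 131 ± 15.5 FPKM in Control and 141 ± 15.0 in cKO and was not called. Of 3 genes of the CDK-activating kinase, which phosphorylates CDKs on their activating loop, 0 were called by limma. Ccnh was at 19.1 ± 2.31 FPKM in Control and 19.4 ± 2.57 in cKO, and Cdk7 at 9.74 ± 0.514 and 12.0 ± 0.854. Cdk7 lay close to the threshold (limma with Benjamini-Hochberg adjustment, adjusted p = 0.0505) and was called higher in 5 of 14 alternatives.

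CDK inhibitors went both ways, with 2 of 6 tested genes called higher and 2 lower. Cdkn1a, which encodes p21, rose from 1.65 ± 0.215 FPKM in Control to 4.42 ± 0.388 in cKO (log2 fold change 1.03, SE 0.12). Cdkn2c, which encodes the CDK4 and CDK6 inhibitor p18, fell from 26.7 ± 3.45 to 8.43 ± 0.665 FPKM (log2 fold change -1.55, SE 0.11). Cdkn2a, the most abundant, which encodes p16 and, in another reading frame, the unrelated protein ARF, was at 64.0 ± 3.498 FPKM in Control and 80.3 ± 3.48 in cKO, a rise of 0.32 (log2) whose call was lost without Control 3 (limma adjusted p = 0.0512). Cdkn2d, which encodes p19, fell from 27.8 ± 2.26 to 19.1 ± 2.13 FPKM. The inhibitors thus held called rises and called falls, and a difference from the D types was not tested.

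Among the kinases and phosphatases that set the activity of CDK1 with B-type cyclins, 2 of 7 were called higher and 1 lower (median log2 fold change 0.25). Pkmyt1, a kinase that inhibits CDK1, fell from 10.7 ± 1.08 to 4.83 ± 1.41 FPKM (log2 fold change -1.04, SE 0.19). Wee1, another CDK1-inhibiting kinase, rose from 35.4 ± 1.61 to 46.1 ± 1.31 FPKM (log2 fold change 0.37, SE 0.07). Cdc25b, a phosphatase that activates CDK1 and was named after its values were seen, rose by 0.51 (log2). Plk1, a mitotic kinase, was at 21.4 ± 3.70 and 30.2 ± 4.78 FPKM and was not called (limma with Benjamini-Hochberg adjustment, adjusted p = 0.0531), but was called higher in 5 of 14 alternatives, that without Control 2 included. In the machinery of cyclin degradation, 1 of 12 genes was called higher, Ube2c (log2 fold change 0.59), an E2 enzyme of the anaphase-promoting complex named after its values were seen, and its call was lost without Control 1, Control 3, cKO 1 or cKO 3. The most abundant genes of that list, Skp1a (189 ± 0.761 and 202 ± 19.1 FPKM) and Cdc20 (83.2 ± 5.31 and 95.1 ± 19.8 FPKM), were not called.

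For the regulators of cyclin transcription, 2 of 13 RB and E2F genes were called higher and 2 lower, and leaving out single libraries brought each count to between 0 and 1. E2f5 (40.3 ± 2.36 and 42.1 ± 4.16 FPKM) and Tfdp1 (38.5 ± 2.64 and 41.0 ± 3.40 FPKM), the most abundant, were not called. Of 8 MuvB and MYB genes, whose complexes act on promoters of G2 and M phase genes, 1 was called lower, Lin37, named after its values were seen. That call was lost without Control 1, Control 2, cKO 2 or cKO 3, and under quantile normalization, limma-voom and the replicate block. Rbbp4 (39.0 ± 1.32 and 44.6 ± 1.49 FPKM) and Foxm1 (32.7 ± 2.44 and 28.7 ± 4.55 FPKM) were not called, although Rbbp4 was called higher under median of ratios scaling, quantile normalization and limma-voom. Of 12 genes of S phase and proliferation, 5 were called higher and 0 lower by limma. The median log2 fold change of this list was 0.34. Mcm5, a subunit of the replicative helicase, rose from 104 ± 5.70 to 148 ± 12.1 FPKM, while Top2a, at 114 ± 14.2 and 153 ± 22.8 FPKM, was not called. With a library left out, between 3 and 5 genes of this list were called higher, and 10 were under quantile normalization and 8 in limma-voom. Top2a was called higher in both of these and in 3 more of the 14 alternatives.

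A list of 19 other cyclin-related genes, most of which act outside the core cell cycle, was set beside the 10 cyclins. Of them 2 were called higher and 4 lower. Their median log2 fold change was -0.0095. The list holds Ccnb1ip1, which encodes a RING-finger ligase that binds cyclin B1 and is not itself a cyclin. It was not called, and the median of the other 18 genes was -0.020. Cntd1, which is needed for meiotic crossovers, fell from 7.59 ± 1.28 to 1.77 ± 0.220 FPKM (log2 fold change -1.63, SE 0.14). Ccni and Ccnk, the most abundant, fell from 95.5 ± 12.2 to 57.4 ± 2.94 FPKM and from 71.2 ± 4.003 to 47.7 ± 3.32 FPKM. Cntd1 and Ccna1 were thus both lower in cKO, and the difference between the lists was not tested.

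By the root mean square difference of centred log2(FPKM + 1) over the 6 libraries, the protein-coding genes closest to Ccna1 were Ube2u (0.19), Wdr20rt (0.19) and Nme5 (0.19). Ube2u was at 12.4, 11.5 and 9.55 FPKM in Control and at 0.828, 0.444 and 0.642 FPKM in cKO. For Ccnb3 they were Oxt (0.17), Nxt2 (0.21) and Duox2 (0.24). Oxt rested on 5, 3 and 5 fragments in Control, and Duox2 was at 0.379, 0.652 and 0.876 FPKM there. Their mean FPKM was 6.52-fold and 8.04-fold higher in cKO, against 3.37-fold for Ccnb3. The pseudocount shrinks the change of such low genes, so their closeness to Ccnb3 belongs to the scale used. Nxt2, like Ccnb3 on the X chromosome, was at 7.21, 5.28 and 5.93 FPKM in Control and at 19.0, 19.5 and 18.5 FPKM in cKO. For Ccnb1 they were Fam171a2, Id3 and Gng7 (0.042 to 0.046), all of them at most 2.81 FPKM in any library. A like pattern over 6 libraries in 2 groups says little beyond the shared difference between the groups.

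The genes lie on 8 chromosomes of GRCm38 (mm10), the build of the table, whose spans match the GENCODE M21 models. Ccna1 (ENSMUSG00000027793, chr3:55045469-55055501, minus strand) and Ccna2 (ENSMUSG00000027715, chr3:36564865-36572150, minus strand) share a chromosome yet went opposite ways. Ccnb3 (ENSMUSG00000051592, chrX:6979652-7041619, minus strand) has 14 exons and a protein of 1396 residues in the transcript with its longest coding sequence. Ccnb1 (ENSMUSG00000041431, chr13:100778650-100786570, minus strand) has 9 exons and 430 residues, and Ccnb2 (ENSMUSG00000032218, chr9:70407692-70421547, minus strand) has 9 exons and 398 residues. The cyclin B3 protein is thus the longest by far, and its gene was the B type with the highest rise here.

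Some cyclin values can hold reads of other genes. Ccna1 shares 185 exonic bases with 4931419H13Rik on the opposite strand, and whether the counting used strand is not given in the sources used here, so reads of the pair cannot be told apart there. That gene was at 1.25, 1.48 and 1.72 FPKM in Control and at 0, 0 and 0.203 FPKM in cKO, low beside Ccna1 in Control. In the same way Ccna2 overlaps Exosc9 by 510 bases, Ccnd1 overlaps Oraov1 by 1100, Ccne2 overlaps Ints8 by 609, Ccnd3 overlaps Bysl by 361, and Ccnd2 overlaps 9330179D12Rik and Gm43126. Of these partners Bysl was called lower, and Exosc9, Oraov1 and Ints8 were not called (log2 differences of 0.08, -0.22 and -0.06). For Ccnb1, 85.1% of 100-base windows are unique, the others occurring in its processed pseudogenes Ccnb1-ps, Gm12856, Gm4870 and Gm8416. Ccnb1-ps had the highest level of these, 1.01 ± 0.475 FPKM in Control and 1.46 ± 0.411 in cKO, far below Ccnb1. All 100-base windows of Ccnb2, Ccnb3 and Ccne1 are unique.

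The promoters of the B types are shown because these genes ranged from the largest rise among the cyclins to no call. RefSeq windows (GRCm38.p6) of 250 bases before to 50 bases after the start were at hand for 6 of the 10 cyclins, Ccna1, Ccnb1, Ccnb2, Ccnb3, Ccnd3 and Ccne1. Entries for Ccna2, Ccnd1, Ccnd2 and Ccne2 were missing. The motifs searched on both strands were TTTGAA (the core of the cell cycle genes homology region), CCAAT, TTTNNCGC (an E2F site), and AACGG and AACTG (cores of MYB sites). They occur in 17.9%, 37.4%, 5.17%, 17.4% and 44.8% of 32851 windows. Ccnb2 holds 3 CCAAT and 2 TTTGAA matches, 1 of the latter just after its start, and Ccnb1 holds 2 CCAAT matches, 1 AACTG and 1 AACGG. Ccnb3 holds no CCAAT or TTTGAA match in its window, but 3 AACTG matches before its start and 3 AACGG matches after it. Ccna1 and 1 of the windows of Ccnd3 hold 1 CCAAT match each. No window of the 6 genes holds TTTNNCGC. A match is a description of letters and says nothing of binding. Printed 5′ to 3′ on the minus strand, with the matches in capitals (CAGTT is AACTG on the other strand), are the bases before the start that no annotated exon covers, at chr13:100786571-100786736 (166 bases), chr9:70421555-70421804 and chrX:7041620-7041869 (250 bases each). The nearer CCAAT match of Ccnb1 and its AACTG match lie within an exon and are not shown.
Ccnb1: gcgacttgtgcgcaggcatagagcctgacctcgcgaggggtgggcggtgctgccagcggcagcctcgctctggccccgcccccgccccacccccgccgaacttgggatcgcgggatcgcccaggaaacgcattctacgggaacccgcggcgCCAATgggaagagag
Ccnb2: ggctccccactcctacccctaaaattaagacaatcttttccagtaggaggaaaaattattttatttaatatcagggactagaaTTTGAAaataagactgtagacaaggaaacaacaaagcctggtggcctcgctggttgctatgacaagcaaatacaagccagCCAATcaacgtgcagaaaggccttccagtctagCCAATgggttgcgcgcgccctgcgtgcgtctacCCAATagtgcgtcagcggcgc
Ccnb3: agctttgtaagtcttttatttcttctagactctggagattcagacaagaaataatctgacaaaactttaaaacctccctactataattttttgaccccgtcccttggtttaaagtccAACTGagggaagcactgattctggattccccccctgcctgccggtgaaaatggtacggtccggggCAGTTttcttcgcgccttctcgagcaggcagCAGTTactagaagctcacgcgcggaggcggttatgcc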

How the data were processed

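RNA-seq libraries of STRA8+ cells, 3 Control and 3 cKO, were grouped by the genotype and number in their labels. The authors deposited FPKM per gene with the gene length. The submitters' processing notes name HISAT2 2.0.5 and mm10, and the counting tool is not given in the sources used here. FPKM times length fell on whole multiples in 100% of values (tolerance 0.1 fragment), which gave the fragments per library. Genes whose mean over the libraries reached 1 FPKM were compared on log2(FPKM + 1) with limma 3.58.1 (R 4.3.3, eBayes with trend), two-sided, adjusted by Benjamini-Hochberg at 0.05. The fit was tested on simulated data with far fewer changed genes than were called here. That test does not bear on how the calls depend on scaling. Shares and ratios were compared by exact permutation tests in Python 3.11.15. Alternatives were other pseudocounts, filters, scalings, a replicate block, limma-voom on fragments, and leaving out each library. Named were all 10 cyclins, Srsf1, called pathway genes with a log2 change of at least 1 in size, the 2 most abundant genes of each pathway list, the most abundant of each marker list, and the 3 genes most like each of the 3 called cyclins with the largest changes. The members and lists were chosen with earlier results of these data known.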

Additional observations from a re-analysis of the deposited data

How the results depend on the processing

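Over 14 alternatives to the limma fit, Ccna1 stayed called lower (log2 fold change between -4.33 and -2.59), and Ccna2 (0.42 to 0.58) and Ccnb3 (1.54 to 1.86) stayed called higher. Leaving out single libraries moved Ccnb1 between 0.49 and 0.70, with the call lost in 3 of 6 cases. Under quantile normalization, which moved the median of all genes to 0.21, 6 cyclins were called higher, with Ccnb2 at 0.28, Ccnd1 at 0.48 and Ccne2 at 0.64 now called. There Ccnd3 turned to 0.15, Ccnd2 was at 0.26 and Ccne1 at -0.051. Limma-voom on fragments called 5 higher, with Ccnd1 at 0.37 and Ccne2 at 0.61 (all genes: 2499 higher and 3321 lower), and median of ratios scaling called Ccne2 (0.57). With single libraries left out, Ccnd1 ranged from 0.22 to 0.39, Ccne2 from 0.37 to 0.69, Ccnd2 from -0.096 to 0.11 and Ccnd3 from -0.25 to 0.013. Ccnd2 turned negative without Control 1 (-0.046) and cKO 3 (-0.096), and Ccnd3 positive without Control 2 (0.013). Between 2 and 4 cyclins were then called higher. The cause of these moves was not tested.

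Pathway genes called numbered 25 of 86, 44 under quantile normalization, 15 with the replicate block and between 16 and 25 with a library left out. Of all genes, 1821 were called higher and 3437 lower. The counts were 5164 higher and 2527 lower under quantile normalization, 1283 and 1950 with a mean of at least 5 FPKM, and 891 and 2870 with the replicate block. With a library left out they were between 965 and 1752 higher and between 2763 and 3202 lower. Libraries with the same number did not deviate together (correlations of -0.0014, -0.11 and 0.016 across genes). For libraries with different numbers the correlations lay between -0.15 and 0.13. So few libraries cannot settle whether the numbers pair the samples. The replicate block changed no cyclin's call (Ccnb3 1.69, Ccna1 -2.95). Counted in fragments in place of FPKM, the change in the A-type share was -3.23 percentage points, that of D types -6.67, and those of Ccna1, Ccnb2, Ccnd2 and Ccnd3 were -2.62, -1.84, -3.03 and -2.67. At this depth Ccna1 in cKO had 5 to 30 fragments, which limits its precision there.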
